A study of Coturnix japonica with 24 samples.

Results

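The genes of bile acid synthesis enzymes were followed in male quail of the species Coturnix japonica, the Japanese quail, on short and long days, in the liver and in white fat of the abdomen (adipose tissue). The set has 8 genes, which are AKR1D1, CYP7A1, CYP8B1, CYP27A1, HSD3B7, BAAT, AMACR and ACOX2. A gene was taken where its identifier in the deposited tables equals one of these symbols, and the counts of its transcripts were summed. They are 8 of the 17239 genes listed in either tissue. All 8 are listed in liver, where 7 had enough counts to be tested beside 4532 genes in all, and 6 are listed in adipose tissue, where 1 of 6495 tested genes is a member. CYP8B1 did not pass the count filter in liver, and the adipose table used here has no row for CYP7A1 or HSD3B7.

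All birds came from long days (16L:8D) and were then placed on 8 hours of light (8L, the short photoperiod), 12 hours (12v) or 16 hours (16v), with 4 libraries per tissue and photoperiod. Nothing in the labels gives the birds' age or strain, or how long they were held. Polyadenylated RNA was turned into cDNA, amplified by PCR and read on a GridION, a Nanopore sequencer. Each library's value below is in CPM, the gene's count scaled to a common, normalised library size, and changes are log2 fold changes with their standard error (SE).

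Bile acids are made from cholesterol in hepatocytes. A classical route starts with hydroxylation of the sterol ring by CYP7A1 and an alternative route starts with oxidation of the side chain by CYP27A1. The ring is then remodelled, the side chain is shortened in peroxisomes, and the product is joined to taurine or glycine before it is secreted into bile. These steps and the enzyme roles given below are known mainly from mammals.

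Liver libraries held 72135 to 867225 counts and adipose libraries 72727 to 1389063. The smallest were replicate 3 of the 12v livers and replicate 2 of the 16v adipose samples, in which 3 counts correspond to 33.5 and 36.0 CPM. The labelled tissues matched their defining markers: ALB (serum albumin) averaged 74098 to 90080 CPM per liver group, and FABP4 (the adipocyte fatty acid binding protein) had 4 counts in all livers together and 28041 to 32113 CPM per adipose group. Ribosomal protein genes set 3 liver libraries apart. On their first principal component, where a higher score is a higher ribosomal protein level, replicate 1 at 16v scored -9.05 and replicates 1 and 3 at 12v scored -6.78 and -7.96. The other 16v and 12v livers scored -0.80 to 2.93, and the 8L livers scored 2.96 to 6.09. The 3 livers set apart also had the fewest counts, 460606, 314495 and 72135, where the others had at least 525043. The part of library depth in the score was not tested.

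In liver 1 member, AKR1D1, rose at 16v relative to 8L. The enzymes that open the classical and the alternative pathway, CYP7A1 and CYP27A1, did not pass a test of photoperiod in the edgeR fit of summed transcript counts, and nor did the remaining members. With 1 of 7 tested members called in the comparison of 16v with 8L (adjusted p under 0.05 in edgeR's quasi-likelihood test), the background was 0.794% of all 4532 genes. Limma-voom and DESeq2 each called 1 member as well, AKR1D1, and called 4.68% and 12% of all genes. An unadjusted p under 0.05 was reached by 2 members, AKR1D1 and AMACR, and by 21.2% of all genes.

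**Figure D1:**
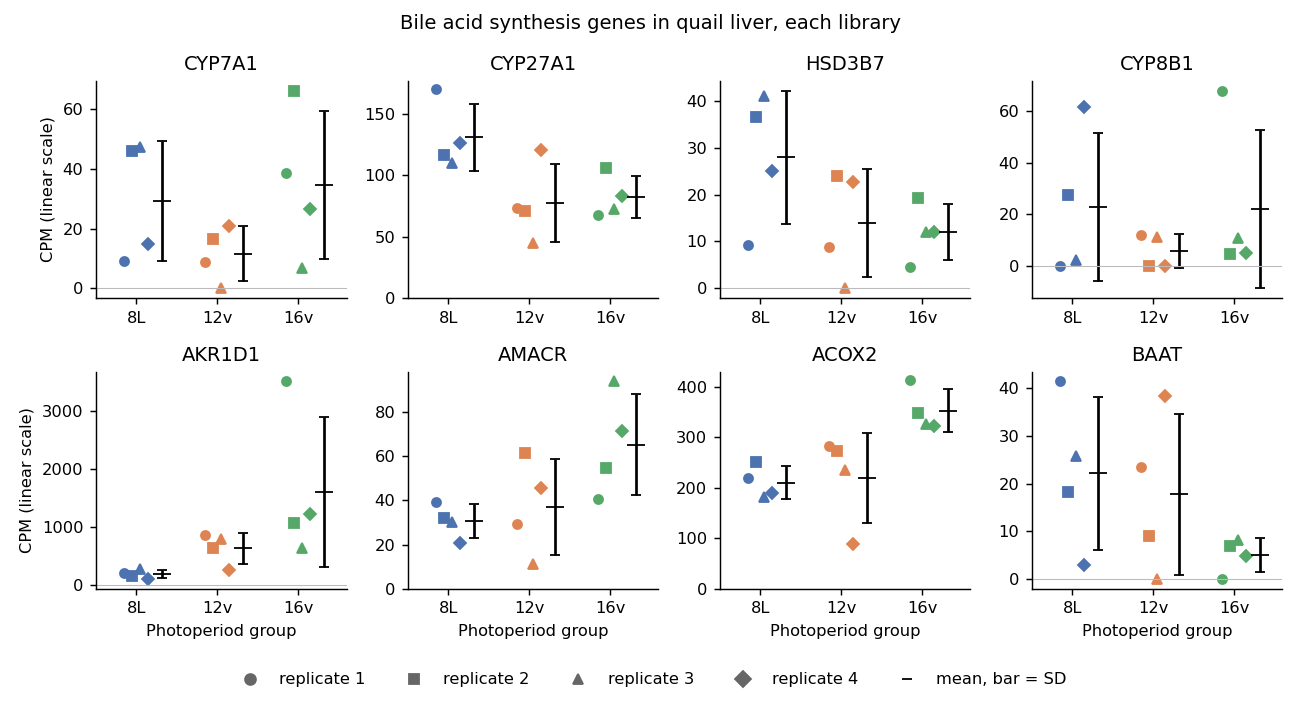
CPM of the 8 members in each liver library, on the y axis, by photoperiod on the x axis (8L, 12v and 16v, 4 libraries each), with the group mean and SD. AKR1D1 lies between 639 and 3506 CPM in the 16v livers and between 115 and 287 CPM in the 8L livers, while the groups of CYP7A1 and CYP8B1 overlap throughout.

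CYP7A1, the rate-limiting hydroxylase of the classical pathway, had 9.21, 45.8, 47.4 and 14.7 CPM in the 8L livers. It had 8.82, 16.5, 0 and 21.0 CPM in the 12v livers and 38.5, 66.1, 6.73 and 26.6 CPM in the 16v livers. Each group had libraries near 10 CPM or below, so that the 3 ranges overlapped, and the value of 0 comes from the library of 72135 counts. The change from 8L was 0.24 ± 0.76 at 16v (edgeR adjusted p = 0.894) and -1.11 ± 0.81 at 12v (edgeR adjusted p = 0.475). The 95% interval at 16v ran from -1.25 to 1.73 on the log2 scale. It spans changes of more than 2-fold in either direction, and 184 CYP7A1 counts over the 12 livers stand behind it. Without replicate 1 of the 8L livers or replicate 2 of the 16v livers the sign of the 16v change turned, to -0.08 and -0.29.

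CYP27A1 is the mitochondrial sterol hydroxylase that opens the alternative pathway and begins side-chain oxidation in the classical one. It had 67.9, 106, 72.7 and 83.4 CPM in the 16v livers, against 170, 117, 110 and 126 CPM in the 8L livers. Every 16v liver was below every 8L liver. The change was -0.66 ± 0.36 on the log2 scale, and it did not pass (edgeR adjusted p = 0.319). Such separation downwards was seen for 1 of 7 members and for 11.7% of all tested genes. At 12v the livers had 73.5, 70.6, 44.6 and 121 CPM, so that replicate 4 alone reached into the 8L range, and the change was -0.72 ± 0.37 (edgeR adjusted p = 0.317).

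Ring remodelling is begun by HSD3B7, a dehydrogenase that acts on the hydroxylated sterols. HSD3B7 had 4.52, 19.4, 12.1 and 12.1 CPM in the 16v livers, against 9.21, 36.6, 40.9 and 25.0 CPM in the 8L livers. The lowest 8L liver lay below 3 of the 4 at 16v. The change of -1.18 ± 0.69 did not pass (edgeR adjusted p = 0.352), and neither did that of -0.80 ± 0.71 at 12v (edgeR adjusted p = 0.553). When the ribosomal protein score was added as a covariate, the value at 16v was 0.03 and that at 12v 0.19, both with the other sign. HSD3B7 counts are spread over 12 listed transcripts, and their sum was 1.47 times the count of the largest.

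CYP8B1 is the hydroxylase that sets the share of cholic acid, and it was read so rarely that counts describe it best. The 8L livers had 0, 12, 1 and 42 counts, the 12v livers 4, 0, 1 and 0, and the 16v livers 30, 4, 8 and 4. Within 8L replicate 4 held most of the counts, and within 16v replicate 1 did. In a fit without the count filter the change at 16v relative to 8L was -0.21 ± 1.19 (edgeR adjusted p = 0.998). The SE exceeds the change, and no direction can be read at this depth. These counts are sums over a pair of transcripts, 106 over all livers with 54 on the larger transcript.

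AKR1D1 is the reductase that saturates the ring in the beta configuration, giving bile acids their bent shape. In mammals it also reduces steroid hormones with the same ring, among them testosterone and cortisol. Its level was 221, 158, 287 and 115 CPM in the 8L livers, 865, 643, 792 and 269 CPM in the 12v livers, and 3506, 1069, 639 and 1224 CPM in the 16v livers. All 16v livers were above all 8L livers. At 12v 3 libraries lay well above the 8L range and replicate 4 lay within it. Replicate 1 at 16v stood highest, far above the next value of its group.

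AKR1D1 averaged 1610 ± 1288 CPM at 16v and 195 ± 75.0 CPM at 8L (SD, n = 4 each), a log2 change of 3.04 ± 0.57 or 8.25-fold (edgeR adjusted p = 0.0316; 95% interval 1.92 to 4.17). At 12v it averaged 642 ± 265 CPM. The change at 12v relative to 8L was 1.71 ± 0.55 and did not pass (edgeR adjusted p = 0.156). It passed with DESeq2 (adjusted p = 0.0416) and without replicate 4 of the 12v livers (1.93, edgeR adjusted p = 0.04998). Over its 12 leave-one-out fits and 11 other alternatives that adjusted p ran from 0.0416 to 0.690, and the change was smallest, at 0.77 ± 0.49, when the ribosomal protein score was a covariate. For 16v relative to 12v the change was 1.33 ± 0.54 (edgeR adjusted p = 0.999), and it was 0.64 without replicate 1 of the 16v livers. When the 3 photoperiods were tested for a difference of any kind, AKR1D1 had an edgeR adjusted p of 0.0600. EdgeR called no member (0 of 7, against 0.53% of all genes), and 1 had an unadjusted p under 0.05 (17.3% of all genes). Limma-voom and DESeq2 each called 1, AKR1D1. The edgeR share is 24 genes, and over 10 other alternatives, these among them, this test called 3 to 463. The number for each tool is not given here, so its call of AKR1D1 cannot be set against its own share of all genes.

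The call of AKR1D1 at 16v relative to 8L depended on single libraries, though the size of the change did so less. With each of the 12 livers left out in turn the log2 change stayed between 2.31 and 3.31. The edgeR adjusted p was 0.0810, 0.139, 0.0878 and 0.0890 without replicates 1, 2, 3 and 4 of the 8L livers, and 0.0558 without replicate 2 at 12v. Without replicates 1, 2, 3 and 4 at 16v it was 0.0756, 0.0696, 0.0575 and 0.116. The change was smallest, at 2.31, without replicate 1 at 16v, the liver with the highest AKR1D1 level. Without the other 12v livers the call held, with adjusted p of 0.00962 to 0.0338. The number of genes called moved as well, to between 0 and 220 over these fits against 36 with all libraries.

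**Figure D2:**
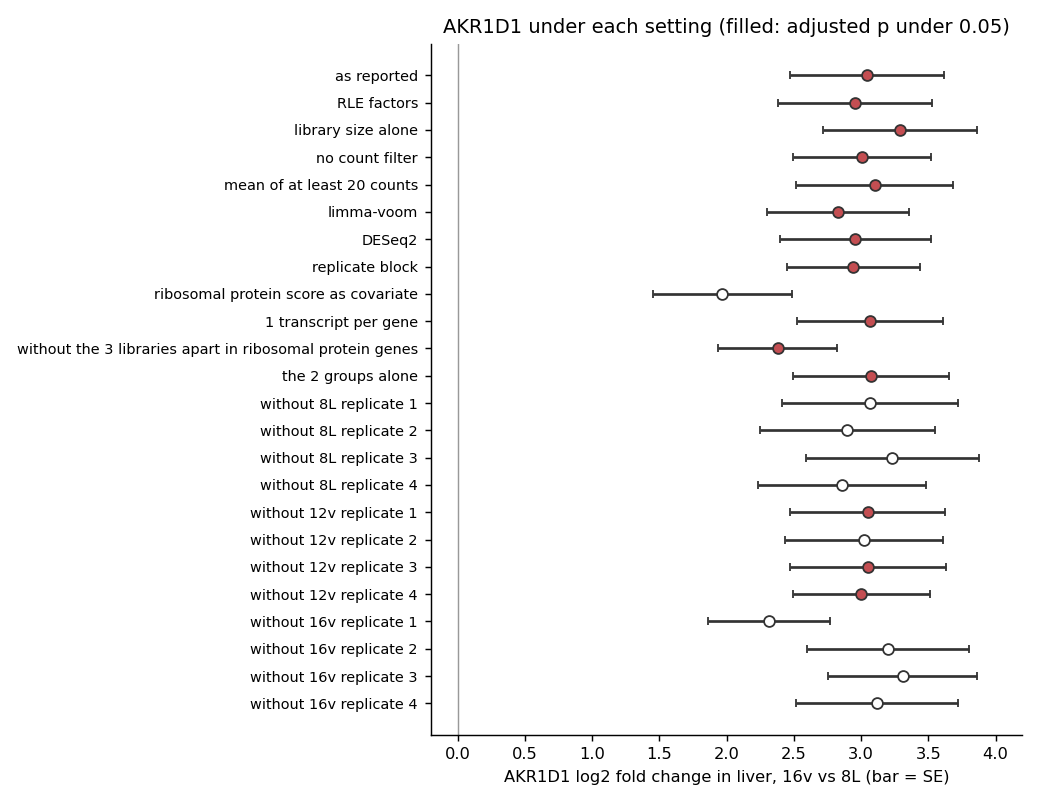
Log2 change of AKR1D1 in liver at 16v relative to 8L, on the x axis, with bars of 1 SE and 1 row per way of processing or library left out; filled points have an adjusted p under 0.05. All values lie above 0, from 1.97 when the ribosomal protein score was a covariate to 3.31 without replicate 3 at 16v.

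Other measures moved with AKR1D1. Its highest liver, replicate 1 at 16v, had the lowest ribosomal protein score of all livers (-9.05). With that score as a covariate the change at 16v was 1.97 and did not pass (edgeR adjusted p = 0.168). Without the 3 livers that stand apart in ribosomal protein genes it was 2.38 and passed (edgeR adjusted p = 0.0381). Summed levels of 18 hepatocyte markers, all of them listed and led by ALB, TTR and APOA1, were 87202 to 125509 CPM in the 16v livers and 128157 to 168519 CPM in the 8L livers. ALB by itself overlapped, with 47461 to 91808 CPM at 16v and 64434 to 112734 CPM at 8L. The sum rests mostly on its most abundant genes and does not give the direction of each marker. Summed levels of 7 endothelial markers, all listed and led by PECAM1, were 153 to 220 CPM at 16v and 64.1 to 128 CPM at 8L. Those of 8 fibroblast or stellate cell markers, all listed and led by COL3A1, were 390 to 629 CPM at 16v and 216 to 346 CPM at 8L. For adipocyte markers, of which 6 of 7 have a row and PLIN1 has none, the range was 19.3 to 43.1 CPM at 16v and 46.1 to 94.8 CPM at 8L. This sum was led by CIDEA, PPARG and LPL, while FABP4 had 4 counts in all livers together. It therefore does not show how many adipocytes the livers held. A single 8L liver, replicate 4, stood apart in markers of other cells. Its summed level was 193 CPM for T cell markers (4 of 5 listed, at most 20.7 CPM in the other livers), 631 CPM for 10 macrophage markers (262 to 390 CPM in the others) and 185 CPM for cholangiocyte markers (6 of 8 listed, 22.3 to 80.1 CPM in the others). This liver had the lowest AKR1D1 and AMACR levels and most of the CYP8B1 counts of the 8L group; without it the changes at 16v were 2.86 for AKR1D1 and 0.98 for AMACR (edgeR adjusted p = 0.0890 and 0.354). The part of these in the AKR1D1 result, or in the values of the other members, was not tested. In bulk tissue a smaller share of cells of a type and less RNA per cell cannot be told apart.

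AKR1D1 has 2 listed transcripts, whose summed count over the livers was 1.94 times that of the larger. How reads that fit both were counted is not stated in the sources used here, so the summed counts may exceed the number of reads. With the larger transcript alone standing for the gene the change at 16v relative to 8L was 3.07 (edgeR adjusted p = 0.0120).

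AMACR and ACOX2 act on the side chain. AMACR is the racemase that turns the side chain into the form that peroxisomal oxidation accepts, and ACOX2 is the peroxisomal oxidase that takes the first step of its shortening. AMACR had 40.7, 54.7, 94.2 and 71.3 CPM in the 16v livers, against 39.1, 32.1, 30.2 and 20.6 CPM in the 8L livers. The groups did not overlap, but the lowest 16v liver and the highest 8L liver were nearly level. The change of 1.10 ± 0.48 did not pass (edgeR adjusted p = 0.208). It passed with 1 transcript standing for each gene (1.19, edgeR adjusted p = 0.0490, with 18.4% of genes called). AMACR has 1 listed transcript, so its own counts were the same in that fit, which tested 2601 genes instead of 4532. Over the 12 leave-one-out fits and 11 other alternatives its adjusted p ran from 0.0490 to 0.472. The change was 1.76 when the ribosomal protein score was a covariate (edgeR adjusted p = 0.161).

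ACOX2 had 414, 349, 327 and 323 CPM in the 16v livers, against 219, 252, 181 and 190 CPM in the 8L livers. All 4 at 16v were above all 4 at 8L. The change of 0.75 ± 0.35 did not pass (edgeR adjusted p = 0.241), with a 95% interval of 0.06 to 1.43. At 12v it had 282, 272, 234 and 89.1 CPM, the last far below the rest, and the change was 0.06 ± 0.35 (edgeR adjusted p = 0.946). ACOX2 was higher in all 16v livers than in all 12v livers too, by 0.69 ± 0.35 (edgeR adjusted p = 0.999), where 1.77% of all genes showed that separation. The summed ACOX2 count was 3.00 times that of the largest of its 3 transcripts.

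BAAT joins the finished bile acid to taurine or glycine. It had 0, 6.84, 8.07 and 4.83 CPM in the 16v livers, against 41.4, 18.3, 25.9 and 2.94 CPM in the 8L livers. A single 8L liver, replicate 4, reached into the 16v range. The change of -2.04 ± 0.97 did not pass (edgeR adjusted p = 0.252), and 92 BAAT counts in all livers lie behind it. They are 46 on each of a pair of transcripts whose counts are identical in every liver, so that as few as 46 reads may stand behind them. With 1 transcript standing for each gene, BAAT and HSD3B7 had too few counts to be tested. In the 12v livers BAAT had 23.5, 9.02, 0 and 38.4 CPM, and the change there was -0.16 ± 0.94 (edgeR adjusted p = 0.942).

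Counted together, 4 of 7 tested members had a log2 change above 0 at 16v relative to 8L, as had 52.7% of all genes, and 3 had one below 0. Their median was 0.24 and that of all genes 0.07. Of the 7, 3 were higher in every 16v liver than in every 8L liver (AKR1D1, AMACR and ACOX2), where 9.89% of all genes were. At 12v relative to 8L 3 members were above 0 (47.3% of all genes) and 4 below, with a median of -0.16 against -0.08 over all genes. No member was called at 12v relative to 8L (0 of 7 in edgeR, background 0.331%), where 1 had an unadjusted p under 0.05 (18.3% of all genes), limma-voom called 0 (0.287% of all genes) and DESeq2 1 (8.05%). At 16v relative to 12v 0 of 7 were called by edgeR, limma-voom or DESeq2 (background 0.0221%), and 1 had an unadjusted edgeR p under 0.05 (2.01% of all genes). The comparisons with 8L share the 8L livers.

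**Figure D3:**
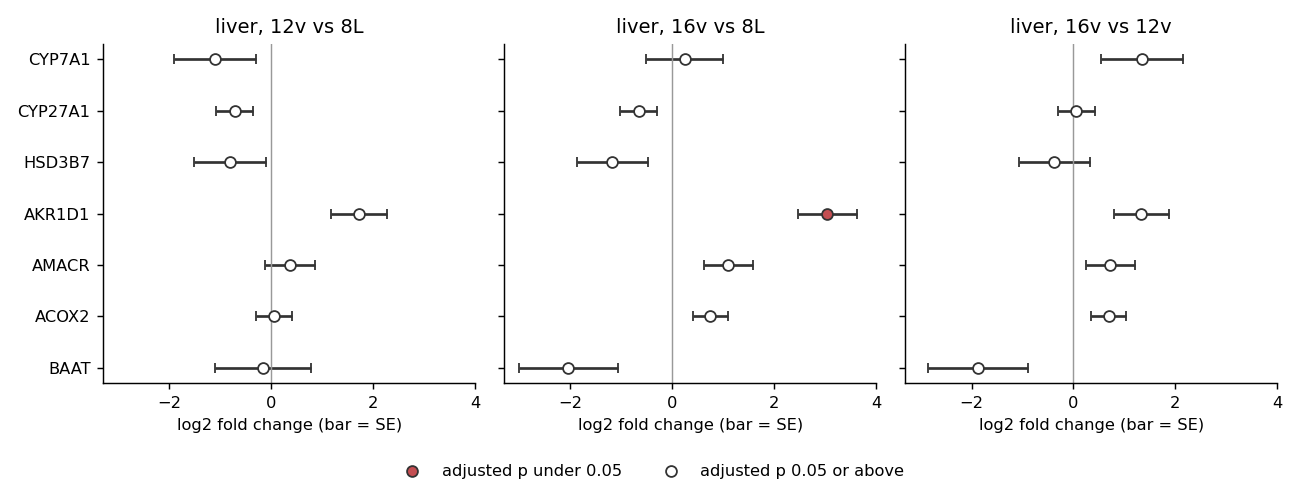
Log2 changes of the 7 tested members in liver, on the x axis, with bars of 1 SE to either side, in a panel each for 12v relative to 8L, 16v relative to 8L and 16v relative to 12v. The filled point marks the change with an adjusted p under 0.05, which is AKR1D1 at 16v relative to 8L (3.04), and open points mark the others.

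Over the 12 livers the genes most like AKR1D1 by Spearman correlation of log2 CPM, of 4088 tested genes with a symbol, were ACAA2 (rho = 0.923), GPT2 and MASP1 (0.916 each), HIBADH (0.909) and TCP1 (0.902). These are descriptions over libraries that share the same groups. Genes chosen for their likeness give no test of it. Their own changes at 16v relative to 8L ran from 1.01 for TCP1 to 1.94 for HIBADH, with an edgeR adjusted p of 0.0429 for HIBADH and of 0.0886 to 0.169 for the other 4. The other members were less like it. ACOX2 was the nearest, at 0.755, AMACR stood at 0.329 and CYP7A1 at 0.126, and BAAT (-0.476), HSD3B7 (-0.615) and CYP27A1 (-0.727) ran the other way.

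Further enzymes of the pathway were read from a list of 13, of which 12 have a row in liver and 8 were tested. At 16v relative to 8L 4 had a change above 0 and 4 below, with a median of 0.31, and edgeR called 0, with 2 of 8 at an unadjusted p under 0.05 (21.2% of all genes). Limma-voom and DESeq2 each called 2, HSD17B4 and CYP7B1, where they called 4.68% and 12% of all genes. HSD17B4, the peroxisomal enzyme that follows ACOX2 in side-chain shortening, had 774, 550, 471 and 591 CPM in the 16v livers, against 242, 337, 336 and 260 CPM in the 8L livers. The change was 1.02 ± 0.27 (edgeR adjusted p = 0.0734; limma-voom 0.0394; DESeq2 0.00138). CYP7B1, the hydroxylase that acts after CYP27A1 in the alternative pathway, had 129, 101, 86.1 and 100.3 CPM in the 16v livers, against 62.2, 27.5, 40.9 and 30.9 CPM in the 8L livers. The change was 1.37 ± 0.38 (edgeR adjusted p = 0.0886; limma-voom 0.0377; DESeq2 0.00583). Neither gene's groups overlapped, a separation upwards that 9.89% of all genes showed. FDX1, the ferredoxin that passes electrons to CYP27A1, averaged 26.1 ± 8.27 CPM at 16v and 14.2 ± 1.40 CPM at 8L (SD, n = 4 each), with a change of 0.86 ± 0.47 (edgeR adjusted p = 0.321), or 0.37 when the ribosomal protein score was a covariate.

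Of 16 bile acid and sterol transporters, 11 have a row in liver and 7 were tested. At 16v relative to 8L 3 were above 0 and 4 below, with a median of -0.17, and edgeR called 0, with 2 of 7 at an unadjusted p under 0.05 (21.2% of all genes). Limma-voom called 0 and DESeq2 2, ABCG8 and SLC51A, where DESeq2 called 12% of all genes. ABCG8, which with ABCG5 exports sterols into bile, had 38.5, 19.4, 30.9 and 33.8 CPM in the 16v livers, against 9.21, 6.87, 8.62 and 0 CPM in the 8L livers. The change was 2.32 ± 0.74 (edgeR adjusted p = 0.116, DESeq2 adjusted p = 0.0122). Every 16v liver was above every 8L liver, as in 9.89% of all genes. Its partner ABCG5 averaged 54.6 ± 8.18 CPM at 16v and 27.2 ± 19.8 CPM at 8L (SD, n = 4 each), with a change of 1.02 ± 0.54 (edgeR adjusted p = 0.304). SLC51A, a subunit of the exporter that returns bile acids to the blood, had 33.9, 54.7, 53.8 and 79.7 CPM in the 16v livers, against 78.3, 192, 129 and 262 CPM in the 8L livers. The highest 16v liver was just above the lowest 8L liver, and the change was -1.57 ± 0.52 (edgeR adjusted p = 0.126; DESeq2 0.0105).

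With 1 transcript standing for each gene, edgeR called HSD17B4, CYP7B1, ABCG8 and SLC51A at 16v relative to 8L, with adjusted p of 0.0216, 0.0201, 0.0287 and 0.0399, where it called 18.4% of the genes tested in this way. When the ribosomal protein score was a covariate their changes were 0.94, 1.17, 2.15 and -1.23, and none passed (edgeR adjusted p = 0.246, 0.287, 0.339 and 0.442). Nor did they pass without the 3 livers apart in ribosomal protein genes (edgeR adjusted p = 0.0892, 0.0946, 0.154 and 0.132).

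Among 20 regulators of the pathway 18 have a row and 6 were tested. At 16v relative to 8L 4 were above 0 and 2 below, with a median of 0.16, and 0 were called by edgeR, limma-voom or DESeq2, with 2 of 6 at an unadjusted edgeR p under 0.05 (21.2% of all genes). NR5A2, a nuclear receptor that activates CYP7A1 and CYP8B1, averaged 112 ± 9.46 CPM at 16v and 58.1 ± 14.98 CPM at 8L, a change of 0.94 ± 0.35 (edgeR adjusted p = 0.145, SD with n = 4 each). NR1H3, the oxysterol receptor LXR alpha, averaged 229 ± 75.0 CPM at 16v and 126 ± 31.2 CPM at 8L, a change of 0.87 ± 0.37 (edgeR adjusted p = 0.201). FGFR4, the receptor through which FGF19 represses CYP7A1 in mammals, averaged 30.1 ± 12.1 CPM at 16v and 61.8 ± 16.0 CPM at 8L, a change of -1.02 ± 0.58 (edgeR adjusted p = 0.338). In these 3 genes, which have the smallest p of the list, the 16v livers lay all on the same side of the 8L livers, as they did upwards in 9.89% and downwards in 11.7% of all genes. When the ribosomal protein score was a covariate the change was 1.12 for NR5A2 (edgeR adjusted p = 0.268), 0.22 for NR1H3 and -0.36 for FGFR4. The bile acid receptor NR1H4 had 57 counts over the livers and its target NR0B2 had 48, too few for the test.

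Of 11 other steroid reductases and dehydrogenases 8 have a row and 1, HSD17B12, was tested. It averaged 64.6 ± 26.2 CPM at 16v and 91.2 ± 6.35 CPM at 8L (SD, n = 4 each), and its change was -0.49 ± 0.40, with 0 called by the 3 tools and none at an unadjusted p under 0.05. When the ribosomal protein score was a covariate the value had the other sign, at 0.07. At 12v relative to 8L edgeR and limma-voom called 0 genes of these 4 lists. With 1 transcript standing for each gene edgeR called ABCG8 (adjusted p = 0.0239) and CYP7B1 (adjusted p = 0.0477), where it called 5.42% of the genes tested in this way. Neither passed at 12v when the ribosomal protein score was a covariate (edgeR adjusted p = 0.330 and 0.427). DESeq2 called 1 of 8 other synthesis enzymes and 2 of 7 transporters at 12v (8.05% of all genes). An unadjusted edgeR p under 0.05 was reached there by 1 of these enzymes, 2 of these transporters and 1 of 6 regulators. The share of all genes was 18.3%. At 16v relative to 12v all 3 tools called 0, and none had an unadjusted edgeR p under 0.05 (2.01% of all genes).

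**Figure D4:**
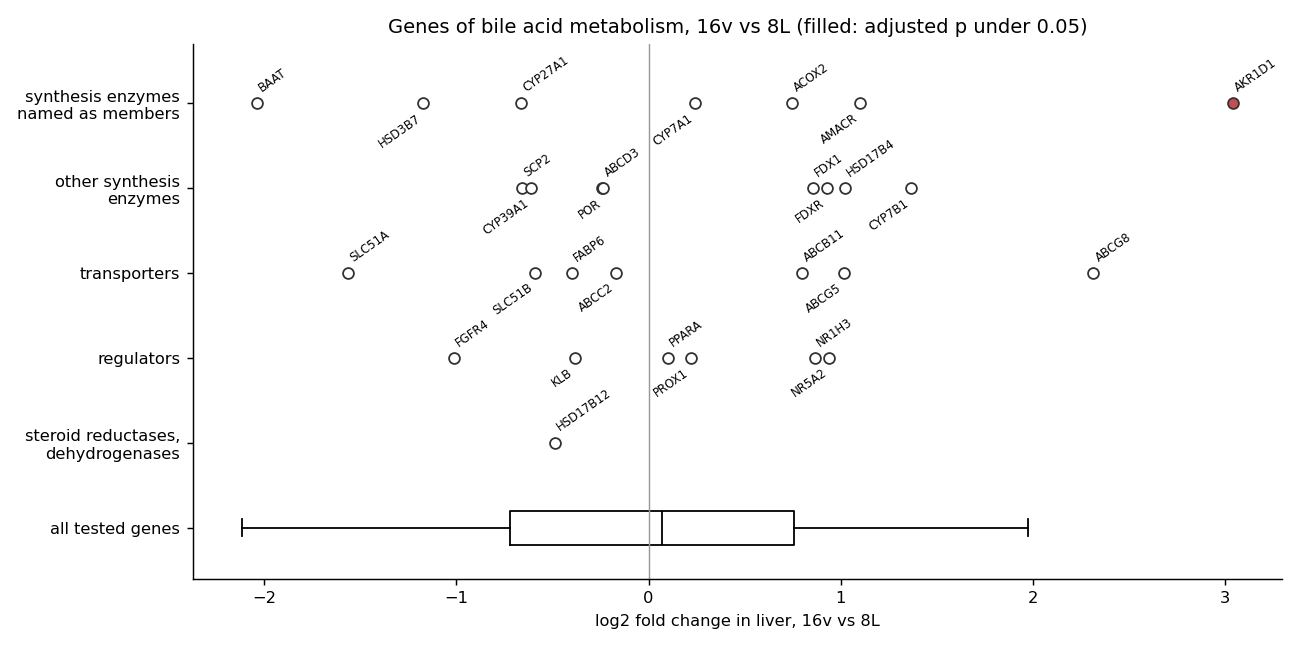
Log2 change in liver at 16v relative to 8L, on the x axis, of each tested gene of the member set and of the 4 lists around it, with a box for all tested genes that spans the quartiles, a line at the median (0.07) and whiskers at percentiles 5 and 95. The filled point marks the gene with an adjusted p under 0.05, which is AKR1D1 (3.04); the others are open, from BAAT at -2.04 to ABCG8 at 2.32.

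In adipose tissue the members had few counts, and CYP27A1 alone had enough to be tested. AKR1D1 had 0, 4, 0 and 0 counts in the 8L samples, 0, 2, 0 and 6 in the 12v samples, and 1, 0, 9 and 23 in the 16v samples. The 8L samples held 20, 13, 0 and 1 counts of the liver transcript ALB, the 12v samples 0, 7, 5 and 5, and the 16v samples 1, 43, 1 and 36. The 16v sample with 23 AKR1D1 counts had 36 of ALB, and that with 9 had 1. That with 43 of ALB had 0 of AKR1D1, and its ALB stood at 516 CPM, against 37.3 CPM in that with 36. Hepatocyte markers, of which 16 of 18 are listed, were led by APOA1, TF and ALB. Their sums were 8001, 11510, 21833 and 5314 CPM in the 16v samples. The highest sum was in the sample with 9 AKR1D1 counts and the lowest in that with 23. Whether liver RNA has a part in the adipose values was not tested. BAAT was read in 1 of 4 samples of each photoperiod, and group means were 7.24 to 8.53 CPM for AMACR, 5.02 to 12.4 CPM for ACOX2 and 0.97 to 5.21 CPM for CYP8B1.

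CYP27A1 had 15.2, 13.8, 6.17 and 13.3 CPM in the 8L adipose samples. It had 35.6, 22.0, 37.8 and 26.6 CPM in the 12v samples and 35.1, 12.0, 34.3 and 41.5 CPM in the 16v samples. All 12v samples were above all 8L samples, a separation that 2.34% of all genes showed. At 16v replicate 2 lay within the 8L range, on 1 count in a library of 72727. The change relative to 8L was 1.39 ± 0.41 at 16v (edgeR adjusted p = 0.530) and 1.24 ± 0.41 at 12v (edgeR adjusted p = 0.654). EdgeR and limma-voom called 0 of 1 member at either photoperiod (edgeR background 0% at 16v and 0.0154% at 12v). DESeq2 called 0 of 1 at 16v (adjusted p = 0.117). At 12v it gave CYP27A1 no adjusted p, so that it could not call it there. The unadjusted edgeR p of CYP27A1 was under 0.05 at both, as it was for 6.68% of all genes at 16v and 4.97% at 12v. At 16v relative to 12v the change was 0.15 ± 0.40 (edgeR adjusted p = 0.999). There all 3 tools called 0 (edgeR background 0%), and the unadjusted edgeR p of CYP27A1 was above 0.05.

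Other measures differed along with it. Summed levels of 8 fibroblast markers, all listed, were 4740 to 10624 CPM in the 8L samples, 4250 to 5770 CPM in the 12v samples and 1913 to 5202 CPM in the 16v samples. Replicate 2 at 16v had a ribosomal protein score of -11.4 within adipose tissue, where the other samples had -2.65 to 4.61. It was also the smallest adipose library, at 72727 counts. Without it the CYP27A1 change at 16v was 1.54 (edgeR adjusted p = 0.321). The part of the fibroblast markers in these values was not tested.

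CYP27A1 values thus ran in opposite directions in the tissues, lower in 16v and 12v livers and higher in 16v and 12v adipose samples, although no single change passed. The difference between the changes was tested in a fit of all 24 libraries over 7107 genes. The liver change minus the adipose change was -1.84 ± 0.58 at 16v (edgeR adjusted p = 0.144) and -1.93 ± 0.58 at 12v (edgeR adjusted p = 0.170). DESeq2 called both, with adjusted p of 0.00146 at 16v and 0.00868 at 12v. With 1 transcript per gene edgeR called that at 16v (adjusted p = 0.0355). CYP27A1 has 1 listed transcript, so its own counts were the same in that fit. Over 8 other alternatives, these among them, 0 to 364 genes were called at 16v and 0 to 183 at 12v, against 21 and 34 in the main fit. The number for each alternative is not given here, so these calls of CYP27A1 cannot be set against the share of all genes. Over 24 leave-one-out fits and the 8 other alternatives the CYP27A1 difference at 16v ran from -2.18 to -1.67 and its adjusted p up to 0.626. With the bird as a block, edgeR's adjusted p was 0.626 at 16v and 0.743 at 12v. No member was called in either difference by edgeR or limma-voom (0 of 5, background 0.295% at 16v and 0.478% at 12v), with 2 at an unadjusted p under 0.05 at 16v (15.2% of all genes) and 1 at 12v (10.9%). For AKR1D1 the liver change minus the adipose change at 16v was -0.05 (edgeR adjusted p = 0.944), and it ran from -2.38 to 0.79 when single libraries were left out. In adipose tissue alone and without the count filter AKR1D1 had a change of 3.30 ± 1.15 at 16v relative to 8L (edgeR adjusted p = 0.695), on 33 counts at 16v and 4 at 8L. AMACR was the second with an unadjusted p under 0.05 at 16v, with 1.71 ± 0.75 (edgeR adjusted p = 0.279). Its adipose samples held 25 counts at 8L and 13 at 16v. In adipose tissue alone AMACR, like every member but CYP27A1, did not pass the count filter.

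Between the tissues all 5 members that could be tested were higher in liver (5 of 5 called, where 23.9% of all genes were higher and 55.1% were called in either direction). In adipose tissue alone only CYP27A1 passed the count filter, so AKR1D1, ACOX2, BAAT and AMACR entered this fit through their liver counts. For those members the filter favoured a higher level in liver, and the share of all genes is not a like comparison. AKR1D1 differed most among the 5 members, by 7.92 ± 0.54 on the log2 scale (edgeR adjusted p = 3.09e-11). The difference was 5.55 ± 0.45 for ACOX2, 3.99 ± 0.74 for BAAT, 3.15 ± 0.31 for AMACR and 2.63 ± 0.25 for CYP27A1, with edgeR adjusted p of at most 9.33e-05. CYP27A1 was the member with the smallest difference, and it and AMACR were read in every adipose sample. With library size alone as the scaling the median of all genes moved by -0.62 in this contrast and with relative log expression factors by -0.30, and every member stayed higher in liver under both.

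**Figure D5:**
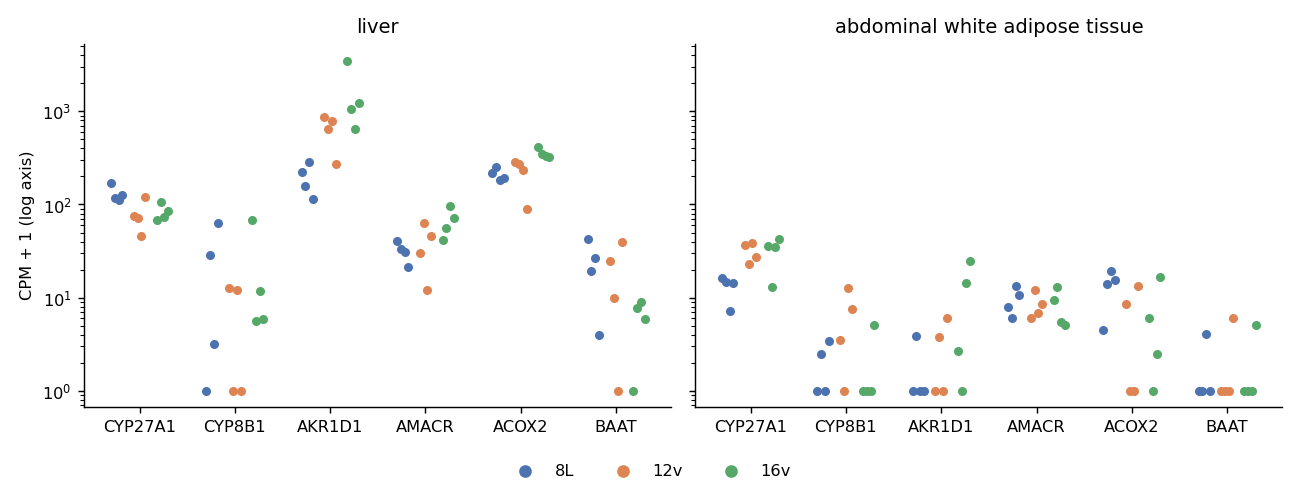
CPM + 1 on a log y axis for the 6 members listed in both tissues, in each liver library (left panel) and each adipose library (right panel), coloured by photoperiod (8L, 12v and 16v). CYP27A1 lies between 44.6 and 170 CPM in liver and between 6.17 and 41.5 CPM in adipose tissue, where the 12v samples lie above the 8L samples.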

How the data were processed

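The deposited tables, 1 per tissue, hold the authors' expected counts per transcript for each library. Of these values 99.5% in liver and 99.6% in adipose tissue are whole within 1e-06. Per the submitters' processing notes the reads went through minimap2 and Salmon. Tool versions, the genome build and the annotation were not given in the sources used here. None of the 24 member transcript accessions is in the quail RefSeq table, and no sequence or coordinate was used. Transcript counts were summed per gene identifier and then rounded.

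After filterByExpr at a minimum count of 10 and a minimum total of 15, genes entered edgeR quasi-likelihood fits with trimmed mean of M values factors and robust dispersions, a mean per photoperiod and all 12 libraries of a tissue. The fit of both tissues used the genes listed in both tables. P-values of edgeR and limma-voom were adjusted by Benjamini-Hochberg over all tested genes, with a threshold of 0.05. DESeq2 adjusted its own after its default filtering, which can leave a gene without an adjusted p. Such a gene counts as not called, and DESeq2 shares are of all tested genes. SE was the size of the log2 change over the square root of F, and 95% intervals are 1.96 SE to either side. These intervals use a normal multiplier and are narrower than the F test would give. Software was R 4.3.3, edgeR 4.0.16, limma 3.58.1, DESeq2 1.42.0, matplotlib 3.10.9 and Python 3.11.15. The tests were tested on simulated data.

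Members and lists were chosen with earlier results of these data known. All members are named, with up to 3 genes per list by smallest p at 16v relative to 8L, and the 5 genes most like AKR1D1. Alternatives were relative log expression factors, library size alone, no filter, a mean of at least 20 counts, limma-voom, DESeq2, a replicate block, the ribosomal protein score (70 genes) as covariate, 1 transcript per gene, omission of 3 livers, the groups compared alone, and each library left out. The number in each library's description is shared by liver and adipose samples of 11 birds, taken as pairs; their deviations from group means correlated by -0.04 to 0.07. The fourth 16v sample carries 104 in adipose tissue and 108 in liver. The labels give no sequencing batch. Floors of 3 counts cover only counting error, as the reads were amplified by PCR and carry no molecular identifiers.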

Additional observations from a re-analysis of the deposited data

Results flagged for a closer look

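In a group of 4, a library was singled out where its gap to the nearest of the others took more of the group's range than Dixon's 95% critical value. Chance flags about 1 in 20 groups of normally distributed values, and 42 groups of member values were examined. A group with 3 samples at 0 and 1 above is flagged whatever its value, so that rate does not cover it. In liver CYP8B1 was singled out at 16v, where replicate 1 had 67.9 CPM on 30 counts and the others 4.56 to 10.8 CPM. That liver also had the lowest ribosomal protein score and the highest AKR1D1 level. In adipose tissue the values singled out rest on few counts, with the other 3 samples of each group at 0. They are CYP8B1 at 4.15 CPM in replicate 4 at 16v, AKR1D1 at 2.91 CPM in replicate 2 at 8L, and BAAT at 3.08 CPM in replicate 3 at 8L, 4.98 CPM in replicate 4 at 12v and 4.15 CPM in replicate 4 at 16v.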

How the results depend on the processing

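AKR1D1 at 16v relative to 8L in liver kept its direction in all 23 alternatives and its call in 13. The call was lost when the ribosomal protein score was a covariate (0 members called) and without any of 9 libraries (0 to 1 over the leave-one-out fits). With 1 transcript per gene 2 members were called. The score was higher in every 8L liver than in every other liver, so the covariate cannot be fully separated from the photoperiod. The 3 lowest scores were in the 3 livers with the fewest counts, so it cannot be fully separated from depth either. At 12v relative to 8L DESeq2 called 1 member, and the leave-one-out fits 0 to 1. For any difference among the photoperiods 1 member was called with library size alone, no count filter, a mean of at least 20 counts, limma-voom, DESeq2 or 1 transcript per gene, and 0 to 1 in leave-one-out fits. For the liver minus adipose difference DESeq2 called 1 member at 16v and 1 at 12v, and 1 transcript per gene called 1 at 16v. Between tissues the stricter filter left 3 members, all called; leave-one-out fits called 5 to 6.

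Of 975 alternatives for the other member changes, 927 gave the same direction and side of the threshold, 6 now passed and 42 turned in sign. ACOX2 at 12v relative to 8L (0.06) was -0.010 with relative log expression factors, -0.10 with limma-voom, -0.020 with DESeq2, -0.022 with the replicate block, -0.27 with the covariate, -0.14 without the 3 livers apart in ribosomal protein genes, and -0.11 to 0.28 over leave-one-out fits. BAAT at 12v relative to 8L (-0.16) was 0.080 with library size alone, 0.35 with limma-voom, 0.65 with the covariate, 0.13 without the 3 livers, and -0.86 to 0.30 over leave-one-out fits. HSD3B7 with the covariate was 0.026 at 16v and 0.19 at 12v. CYP27A1 in liver at 16v relative to 12v (0.06) was -0.028 with DESeq2, -0.12 without the 3 livers and -0.082 to 0.37 over leave-one-out fits, and in adipose tissue -0.0091 to 0.30. CYP7A1 at 16v relative to 8L ran from -0.29 to 0.59 over leave-one-out fits. The AKR1D1 liver minus adipose difference at 16v (-0.05) was 0.0091 with library size alone, 0.059 with limma-voom and 0.73 with the bird as a block. Leave-one-out fits gave -2.38 to 0.79 at 16v and -1.80 to 1.44 at 12v, and for BAAT -3.19 to 1.18 at 12v. The causes were not tested.

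The genes called at 16v relative to 8L in liver (36) ran from 2 to 545 over the other alternatives, and from 0 to 220 over leave-one-out fits. At 12v (15) they ran from 1 to 365 and from 0 to 294, the last without replicate 4 at 12v. For 16v relative to 12v (1) the ranges were 0 to 3 and 0 to 1, and for any difference (24) 3 to 463 and 1 to 240. In adipose tissue they were 0 to 38 and 0 to 4 at 16v (0), 0 to 22 and 0 to 1 at 12v (1), and 0 to 5 and 0 at 16v relative to 12v (0). For the liver minus adipose difference they were 0 to 364 and 0 to 60 at 16v (21), and 0 to 183 and 0 to 102 at 12v (34). Between tissues (3915) they were 2045 to 5184 and 3867 to 4405. In liver, library size alone moved the median of all genes by 0.26 at 16v and 0.23 at 12v relative to 8L, and relative log expression factors by -0.11 at 16v.

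The labels link same-numbered samples of different photoperiods by that number alone. Their deviations correlated by -0.17 to 0.21 in liver and -0.10 to 0.05 in adipose tissue. Liver and adipose samples taken as the same bird also correlated by only -0.04 to 0.07, so such values cannot show whether samples share a factor. The replicate block called 65 genes at 16v and 26 at 12v relative to 8L in liver, and AKR1D1 at 16v stayed called (2.94, edgeR adjusted p = 0.0291). With the bird as a block 0 genes were called in either liver minus adipose difference, and no other member call changed.

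Depth limits the low members most. CYP8B1, BAAT and HSD3B7 had 106, 92 and 126 summed counts over all livers, and 54, 46 and 86 on their largest transcript. In the smallest liver 3 counts correspond to 33.5 CPM, so that a count of 0 there does not show absence. If a read was counted on more than 1 transcript, that floor is too low for the summed counts.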
